A study of Homo sapiens with 4 samples.

Results

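Apoptosis regulators and p53 targets were examined in HuCCT1 cells, a human intrahepatic cholangiocarcinoma cell line, with 1 array per transfection. The list held 45 genes: 5 pro-survival members of the BCL2 family, 3 pore-forming members, 8 BH3-only members, 9 genes of the apoptosome and the caspases with their inhibitors, 7 genes of the death receptors, 2 inhibitors of p53 and 11 p53 targets. The rule takes the members by name and uses no measured value. All 45 had a probe on the array, and 44 had a probe well above background on all 4 arrays, out of 13602 genes measured in that way. The exception was *BCL2*. Cells received 30 nM of Pre-miR-376c (a mimic of the mature microRNA miR-376c), Pre-miR negative control, an siRNA against *GRB2* (siGRB2-2) or siRNA negative control. In the sample labels siGRB2-2 is named siGRB2. After 24 h every transfection was exposed to epidermal growth factor (EGF) at 5 ng/ml for 24 h in medium with 0.1% serum, so the negative controls were EGF-treated as well. No culture without EGF was measured here. The arrays were used by the study in search of genes that act in the EGF-dependent migration of these cells, among mRNAs affected by the microRNA and by knockdown of GRB2, an adaptor that couples the EGF receptor to Ras.

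Apoptosis is run by caspases, proteases that are activated either at death receptors on the cell surface or by the apoptosome after cytochrome c leaves the mitochondria. The BCL2 family controls that second route: BAX, BAK1 and BOK open the outer mitochondrial membrane, the pro-survival proteins hold them in check, and the BH3-only proteins relieve that check or act on the pore formers directly. The transcription factor p53 feeds into both routes and into growth arrest and DNA repair, and in biliary epithelium the death receptors FAS and TRAIL-R are well known routes to cell death. The microRNA itself acts through its seed, the stretch near its 5′ end that pairs with target mRNAs. The mature strand is shown for that reason, with the seed (bases 2 to 8) in capitals, from RefSeq (GRCh38.p14, chr14:101039732-101039752, plus strand).
hsa-miR-376c-3p: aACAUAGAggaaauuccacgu

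The p53 half-site, a motif of 10 bases that reads the same on both strands in its consensus form, was searched as a description of the members' promoters, from 250 bases before to 50 bases after each RefSeq start site. It was found in 6 of the 62 windows of the 34 members that had one (9.68%), and in 2329 of 35116 windows of all genes (6.63%). The 6 members were *BAK1*, *CASP8*, *CASP9*, *FAS*, *FDXR* and *SESN1*. Windows of 30 bases around 3 of these matches are printed because the genes return below as a death receptor and as p53 targets, with the half-site in capitals (GRCh38.p14). The match of *FAS* began 122 bases before the start site (chr10:88991299-88991328, plus strand), that of *SESN1* 49 bases before it (chr6:109009018-109009047, minus strand) and that of *FDXR* 11 bases before it (chr17:74872986-74873015, minus strand). A match of letters is a description and no site, and a window without one says nothing about the factor.
FAS: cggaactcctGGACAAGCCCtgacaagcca
SESN1: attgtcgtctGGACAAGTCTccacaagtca
FDXR: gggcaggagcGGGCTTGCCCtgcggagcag

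Values are log2 intensities with the 75th percentile of the spots of each array subtracted, so a level of 0 is the 75th percentile and a difference of 0.58 is 1.5-fold. A level was compared between arrays for the same gene only. There was 1 array per condition and therefore no replicate, SD of a condition or test. The error available was the one that the scanner software gives for each spot, which for a member's difference between 2 arrays was 0.0645 to 0.256 (median 0.204) and covers neither a second transfection nor a second array. Spread between 10 spots of a probe, known for 8 members, was an SD of 0.0245 to 0.123. Since the negative controls themselves lay apart, a member was called changed with a treatment when its treated array was at least 1.5-fold above, or at least 1.5-fold below, both negative control arrays.

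The targeted gene *GRB2* was lowest on the siGRB2-2 array, at -0.65, against -0.10 with siRNA negative control, 0.07 after Pre-miR-376c and 0.62 on the Pre-miR negative control array (1 probe). Its log2 difference on the siGRB2-2 array was -0.55 from siRNA negative control, short of 1.5-fold, and -1.27 from Pre-miR negative control. All 5 biliary epithelium markers (*KRT7*, *KRT19*, *EPCAM*, *SOX9* and *MUC1*) were well above background on all 4 arrays, as were 1 of 5 hepatocyte markers, 2 of 5 fibroblast markers and 2 of the leukocyte markers. Those were *APOA1*, *COL1A1*, *LUM*, *PTPRC* and *CD14*, while *CD3E* was well above background on 3 arrays and *CYP3A4* on 2, and *ALB*, *TTR*, *TAT*, *COL1A2*, *COL3A1*, *DCN* and *LYZ* on none. *COL1A1* was the 1 marker past 1.5-fold from both negative controls, at -2.40 and -2.79 on the Pre-miR and siRNA negative control arrays, -3.41 after Pre-miR-376c and -2.20 after siGRB2-2, and its part in the results was not tested. The siRNA negative control array was the farthest from the other 3 for 54.4% of all genes and for 21 of the 44 members (47.7%).

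Few members changed. With Pre-miR-376c, *BMF* and *TP53INP1* were lower than both negative controls (2 of 44 members, 4.55%, against 1.59% of all genes), and none was higher (0.809% of all genes were). With siGRB2-2, *ZMAT3* alone was higher than both negative controls (1 of 44, 2.27%, against 1.26% of all genes), and none was lower (0.934% of all genes were). These counts are small beside a background of this size, and nothing is read from them about the list. Between Pre-miR-376c and siGRB2-2, 3 members were at least 1.5-fold apart (6.82%, against 6.04% of all genes): *FAS*, *TP53INP1* and *ZMAT3*.

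**Figure D1:**
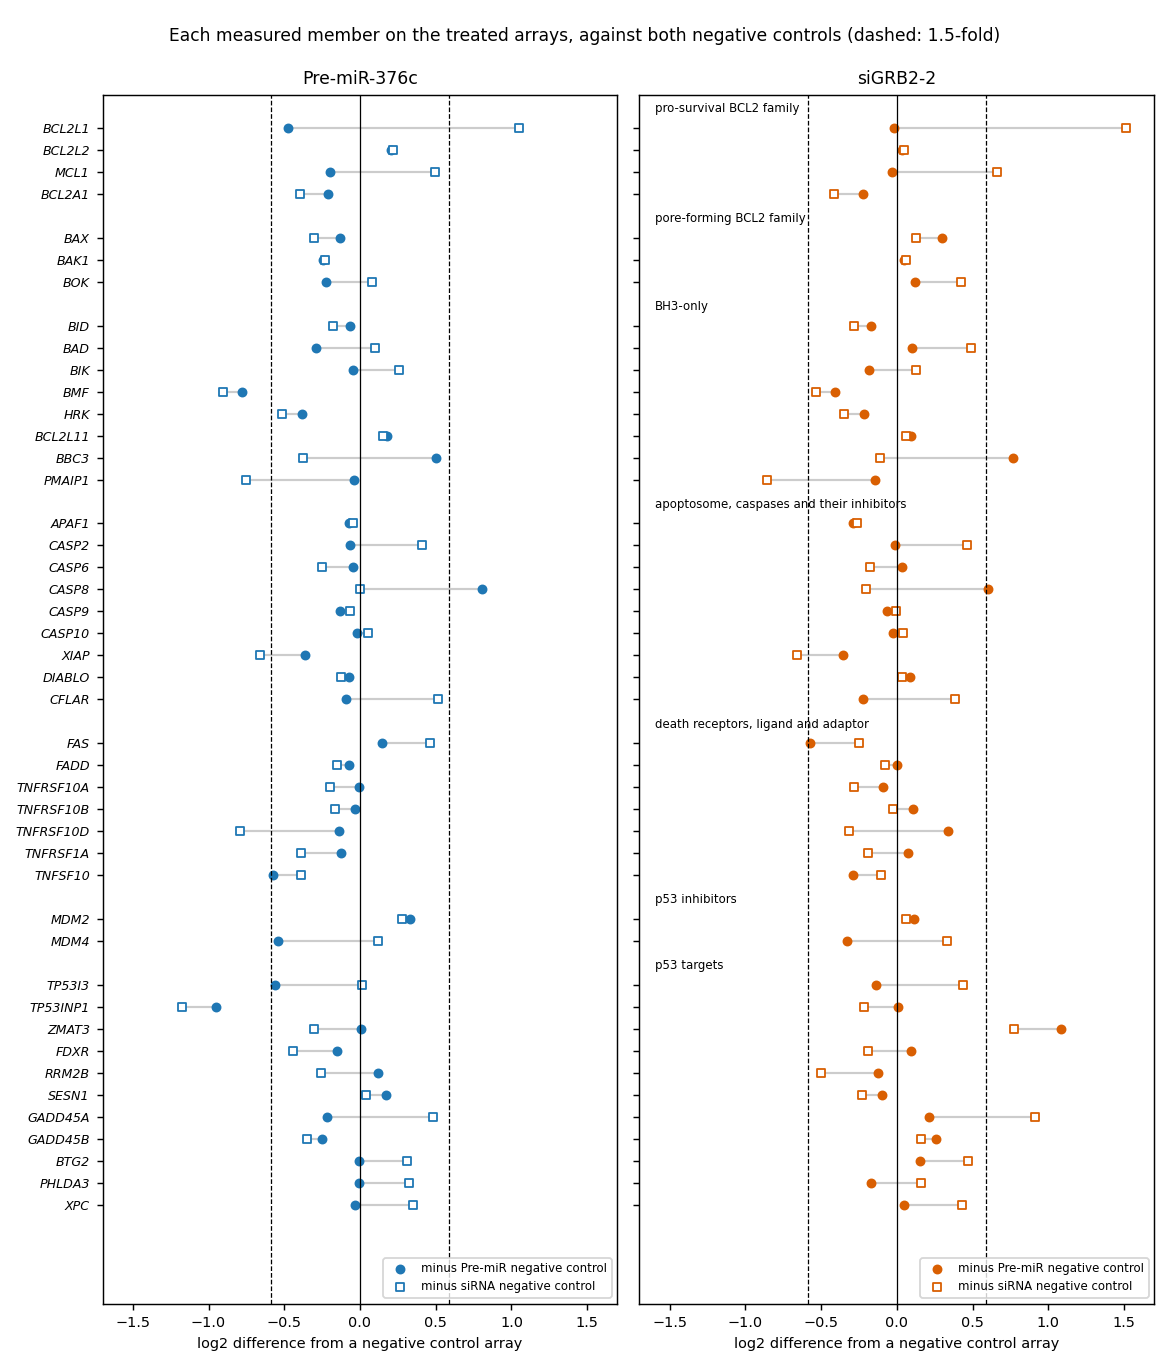
Log2 difference of each of the 44 measured members from the Pre-miR negative control (filled circles) and from the siRNA negative control (open squares), with Pre-miR-376c on the left and siGRB2-2 on the right, 1 array per condition. Both points of a gene lie past the same dashed line (1.5-fold) for BMF and TP53INP1 on the left and for ZMAT3 on the right, and the widest gap between circle and square is that of BCL2L1.

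*BMF*, a BH3-only protein that binds pro-survival BCL2 proteins when cells lose attachment, lay at -2.68 with Pre-miR negative control, -2.56 with siRNA negative control, -3.46 after Pre-miR-376c and -3.09 after siGRB2-2. The Pre-miR-376c array was the lowest of the 4, the siGRB2-2 array the next, and the controls were within 0.13 of each other. The level with Pre-miR-376c was 58.2% of that with Pre-miR negative control (log2 difference -0.78, scanner error 0.158) and 53.4% of that with siRNA negative control (-0.91, scanner error 0.162). With siGRB2-2 it was 75.3% and 69.0% of the same controls, short of the limit. Both probes of the gene gave this order of treated and control arrays. Probe A_23_P379649 read -1.33, -0.92, -2.07 and -1.69 on the Pre-miR negative control, siRNA negative control, Pre-miR-376c and siGRB2-2 arrays, and probe A_33_P3346801 read -4.04, -4.20, -4.86 and -4.50. With normexp background correction the differences of Pre-miR-376c shrank to -0.45 and -0.50, and *BMF* no longer passed the limit.

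*TP53INP1*, a p53 target whose product promotes cell death and autophagy, lay at -1.95 with Pre-miR negative control, -1.72 with siRNA negative control, -2.90 after Pre-miR-376c and -1.94 after siGRB2-2. The Pre-miR-376c array stood below the other 3, which were within 0.22 of each other. Its level was 51.8% of that with Pre-miR negative control (log2 difference -0.95, scanner error 0.207) and 44.3% of that with siRNA negative control (-1.17, scanner error 0.207). The siGRB2-2 array was at 100.4% and 85.9% of the same controls, and the treated arrays were 0.96 apart on the log2 scale. These values rest on 1 probe. The second probe, A_33_P3421163, was well above background only with Pre-miR negative control (-4.98) and siGRB2-2 (-5.39), so it gave only bounds: Pre-miR negative control was at least 2.69-fold brighter than Pre-miR-376c and at least 2.53-fold brighter than siRNA negative control, and siGRB2-2 was at least 1.91-fold brighter than siRNA negative control. With that probe included (no filter on dim probes), the siGRB2-2 difference from siRNA negative control turned from -0.22 to 0.44. On that probe neither siRNA negative control nor Pre-miR-376c was well above background, whereas on the first they were the highest and the lowest array.

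*ZMAT3*, a p53 target that encodes an RNA-binding zinc finger protein, lay at -5.41 with Pre-miR negative control, -5.11 with siRNA negative control, -5.41 after Pre-miR-376c and -4.33 after siGRB2-2. The siGRB2-2 array was the highest and the other 3 were within 0.31 of each other. It was 212% of Pre-miR negative control (log2 difference 1.08, scanner error 0.0794) and 171% of siRNA negative control (0.77, scanner error 0.0846). The probe had 10 spots, with an SD between spots of 0.0832 on the siGRB2-2 array and 0.121 on the Pre-miR negative control array. Its signal was low, with a mean processed intensity of 99.2 with siGRB2-2 and 48.7 to 63.3 on the other arrays, against a lowest signal well above background of 21.2 to 24.4. Its difference from siRNA negative control fell short of the limit with quantile normalization (0.43), a median shift (0.49) and normexp background correction (0.32). The difference from Pre-miR negative control stayed past the limit under these 3 alternatives (0.73 to 1.07).

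**Figure D2:**
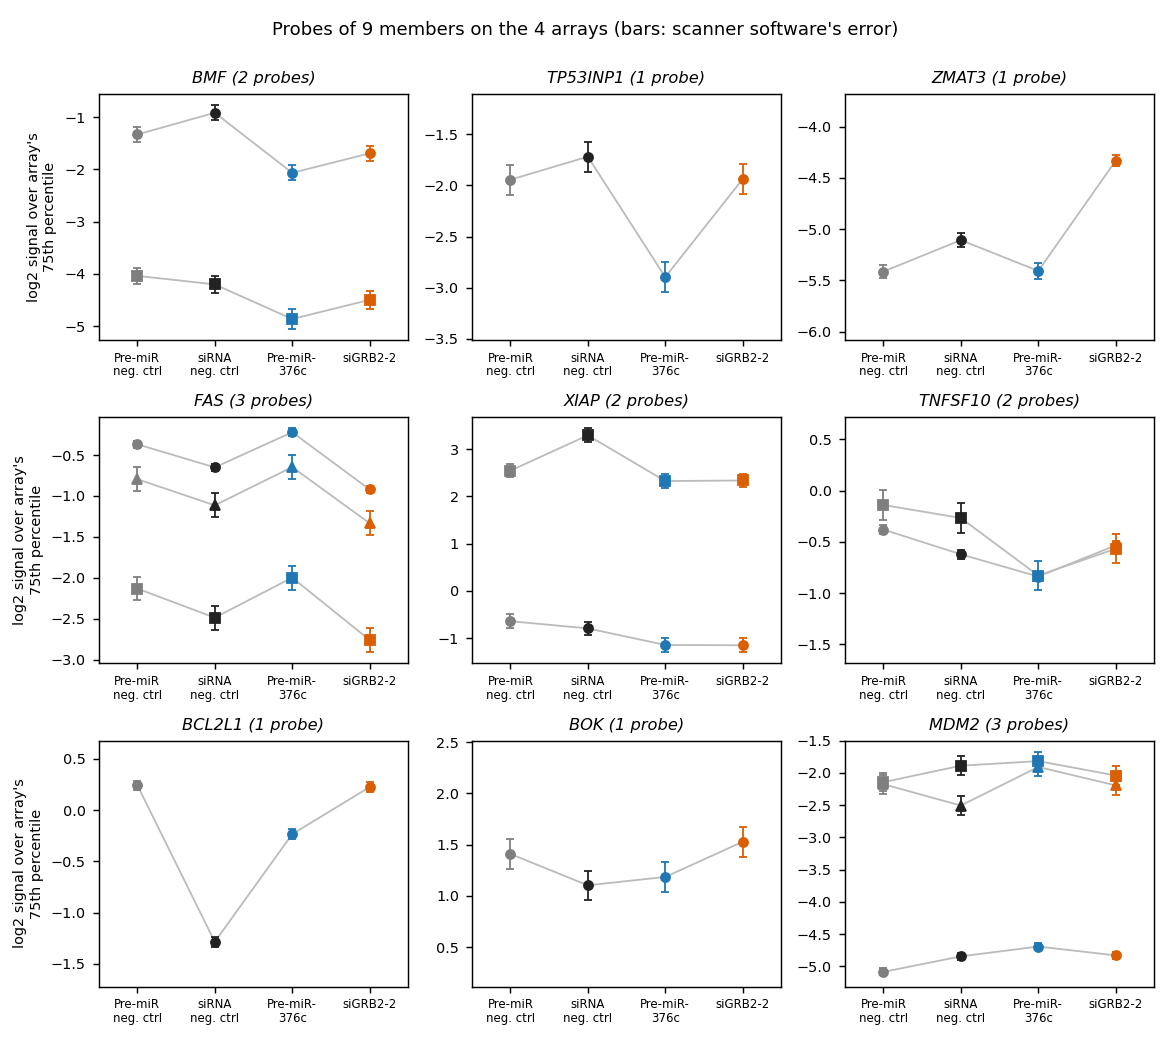
Log2 signal over the array's 75th percentile for every probe, well above background on all 4 arrays, of 9 members (each panel has its own axis, points of a probe are joined, marker shape tells probes apart, bars are the scanner software's error, 1 array per condition). BMF and TP53INP1 dip on the Pre-miR-376c array, ZMAT3 peaks on the siGRB2-2 array, the 3 FAS probes run in parallel, and BCL2L1 is low only on the siRNA negative control array.

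The list as a whole moved little. Its median log2 difference with Pre-miR-376c was -0.07 from Pre-miR negative control (all genes -0.02) and -0.09 from siRNA negative control (all genes 0.06). With siGRB2-2 it was 0.02 from siRNA negative control (all genes 0.11) and -0.01 from Pre-miR negative control (all genes 0.03). The comparisons share control arrays and are given side by side only. Between the negative controls the members' median was 0.05, with the siRNA control minus the Pre-miR control, and that of all genes was -0.08. Most members sat slightly below the Pre-miR negative control with Pre-miR-376c: 35 of 44 were lower by any amount (79.5%, against 53.1% of all genes). Below both negative controls by any amount were 21 of 44 with Pre-miR-376c (47.7%, against 27.2% of all genes) and 14 of 44 with siGRB2-2 (31.8%, against 23.9%). Only 2 of the 21 were past 1.5-fold. These counts turned on the scaling: a median shift moves the median of all genes by over 0.1 in each comparison of arrays except siGRB2-2 minus Pre-miR negative control. Under it the count below Pre-miR negative control fell to 20 of 44 (37.2% of all genes), and those below both controls became 17 for Pre-miR-376c (24.6% of all genes) and 18 for siGRB2-2 (34.2% of all genes). The sign of the members' median turned with it, to 0.04 for Pre-miR-376c from Pre-miR negative control (all genes 0.09). For siGRB2-2 from siRNA negative control it turned to -0.27 (all genes -0.17). In both comparisons the members' median stayed below that of all genes, as before the shift.

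**Figure D3:**
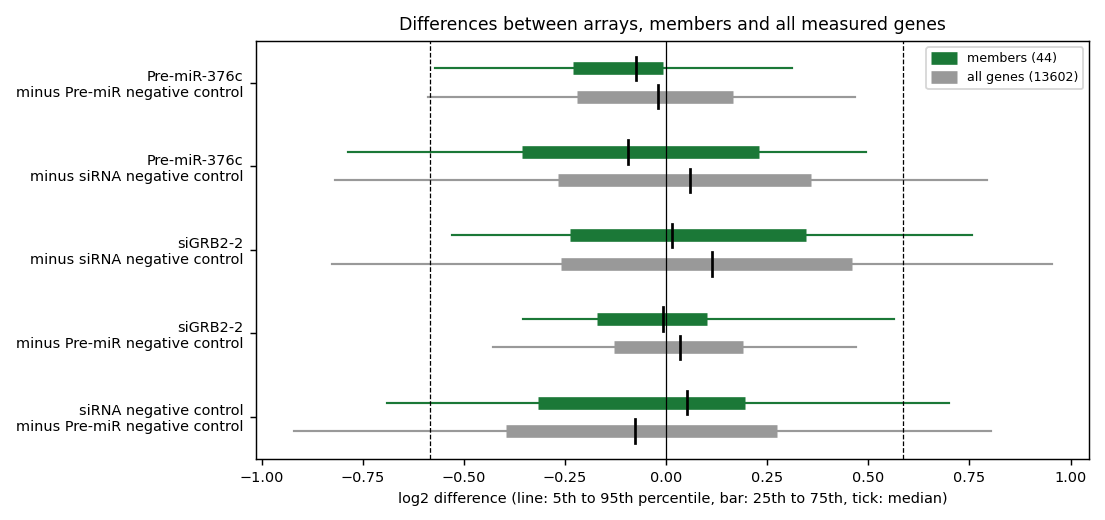
Log2 differences between arrays (x axis) for the 44 members (green) and the 13602 genes measured (grey): tick, median; bar, 25th to 75th percentile; line, 5th to 95th percentile over genes; dashed lines, 1.5-fold. The members' bar for Pre-miR-376c minus Pre-miR negative control runs from -0.23 to -0.01 and lies wholly below 0, and the members' line between the negative controls runs from -0.69 to 0.70.

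For several members the value depended on which control was used. The negative controls were at least 1.5-fold apart for 9 of 44 members (20.5%, against 25% of all genes), 4 of them higher and 5 lower with siRNA negative control. Against its own control only, Pre-miR-376c was past 1.5-fold for 3 members (6.82%, against 7.8% of all genes) and siGRB2-2 for 6 (13.6%, against 28.5%). The members named next were chosen after their values were seen. *CASP8*, the initiator caspase of the death receptors, was the 1 member at least 1.5-fold higher than its own control with Pre-miR-376c. It lay at -1.66 with Pre-miR negative control, -0.85 with siRNA negative control, -0.85 after Pre-miR-376c and -1.05 after siGRB2-2. The Pre-miR negative control was low, and the other 3 arrays were close together. *PMAIP1* (NOXA, a BH3-only p53 target that binds MCL1) lay at 1.59 with Pre-miR negative control, 2.30 with siRNA negative control, 1.55 after Pre-miR-376c and 1.44 after siGRB2-2. Here the siRNA negative control was high. The differences of the treated arrays from it, -0.75 and -0.86, had no counterpart against Pre-miR negative control (-0.04 and -0.15). *GADD45A*, which takes part in growth arrest and DNA repair, read 2.13 with Pre-miR negative control, 1.43 with siRNA negative control, 1.91 after Pre-miR-376c and 2.34 after siGRB2-2. It was 0.91 higher with siGRB2-2 than with siRNA negative control and 0.21 higher than with Pre-miR negative control.

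Among the pro-survival BCL2 family, *BCL2L1* (which encodes BCL-XL) had the widest range of any member. It lay at 0.24 with Pre-miR negative control, -1.29 with siRNA negative control, -0.24 after Pre-miR-376c and 0.22 after siGRB2-2. The low array was a negative control, and *BCL2L1* was the 1 member at least 2-fold apart between the controls (2.27% of members, against 5.7% of all genes). Its level with siGRB2-2 was 285% of siRNA negative control (log2 difference 1.51, scanner error 0.0646) and 98.8% of Pre-miR negative control (-0.02, scanner error 0.0645). With Pre-miR-376c it was 207% of siRNA negative control and 71.8% of Pre-miR negative control, so the direction turned with the control. The 10 spots of its probe had an SD of 0.0245 to 0.0409 on an array. *MCL1*, another guard of the mitochondrial membrane, followed the same pattern at a smaller size, at 1.65 with Pre-miR negative control, 0.96 with siRNA negative control, 1.46 after Pre-miR-376c and 1.62 after siGRB2-2. *BCL2L2* (BCL-W) stayed within 0.22 over all 4 arrays. The *BCL2A1* probe well above background on every array was lower with both treatments than with both controls, by 0.21 to 0.41. *BCL2* had no probe above background throughout. Its probe A_33_P3355185 was just above it with Pre-miR negative control (-6.19) and Pre-miR-376c (-6.00) and not well above it with the siRNA negative control or siGRB2-2, and its other probe was not well above it on any array.

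The 3 pore-forming genes were lower with Pre-miR-376c than with Pre-miR negative control by 0.13 to 0.24 (53.1% of all genes were lower). Compared with siRNA negative control, *BAX* and *BAK1* were lower with Pre-miR-376c and *BOK* was 0.08 higher. With siGRB2-2 all 3 were higher than with both controls by 0.05 to 0.42 (38.3% of all genes were above both). With a median shift 1 of the 3 was above both, and 2 were with normexp, the deposited values or the brightest probe. *BOK* differed most from the mean of the controls. It lay at 1.41 with Pre-miR negative control, 1.10 with siRNA negative control, 1.18 after Pre-miR-376c and 1.53 after siGRB2-2. With siGRB2-2 it was the highest of the 4 by 0.12 over Pre-miR negative control, less than the scanner error of 0.204. *BAX* was -0.32 and -0.15 on the Pre-miR and siRNA negative control arrays, -0.45 after Pre-miR-376c and -0.02 after siGRB2-2. *BAK1* was 0.24, 0.23, 0.00 and 0.29 in the same order. The *BAX* values are means of 2 probes that disagreed with siGRB2-2. The brighter one, with 10 spots, read 2.38 there, just below its 2.41 with siRNA negative control. The place of *BAX* above both controls rested on the dimmer probe, at -2.43 against -2.88 and -2.70 on the Pre-miR and siRNA negative control arrays. None of the 3 was 1.5-fold from any control.

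Of the 8 BH3-only genes, *BMF* alone passed the limit. With each treatment 4 of the 8 were below both controls, where 27.2% (Pre-miR-376c) and 23.9% (siGRB2-2) of all genes were. *HRK*, a BH3-only gene known from neurons, was among the 4 with both, at -0.81 with Pre-miR negative control, -0.68 with siRNA negative control, -1.19 after Pre-miR-376c and -1.03 after siGRB2-2. *BID*, which links caspase 8 to the mitochondria, was also below both controls with both treatments as a mean of 2 probes and varied by 0.28 over the 4 arrays. This rested on 1 probe, A_24_P187948, since the other, A_33_P3227041, read 4.26 with Pre-miR negative control, 4.12 with siRNA negative control, 4.26 after Pre-miR-376c and 4.12 after siGRB2-2. *BBC3* (PUMA, a p53 target) was 0.76 above Pre-miR negative control and 0.11 below siRNA negative control with siGRB2-2, so it lay between the controls, which were 0.88 apart. *BAD* and *BIK*, BH3-only partners of the pro-survival proteins, differed by less than 0.5 on the log2 scale from either control with both treatments. *BCL2L11* (BIM) had 3 probes whose differences did not run together. Its mean stayed between -1.24 and -1.07, but one probe was higher on the treated arrays, at -2.23 with Pre-miR negative control, -1.98 with siRNA negative control, -1.56 after Pre-miR-376c and -1.46 after siGRB2-2. Another read 0.37, 0.54, 0.19 and 0.00 in the same order, and the third stayed between -2.20 and -1.84.

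Among the apoptosome, the caspases and their inhibitors, *XIAP* differed most from the controls. This inhibitor of caspases lay at 0.95 with Pre-miR negative control, 1.25 with siRNA negative control, 0.59 after Pre-miR-376c and 0.59 after siGRB2-2. Both treated arrays were below both controls and equal to each other within 0.01. The differences were -0.36 from Pre-miR negative control with either treatment, and -0.66 from siRNA negative control with either (scanner error 0.144), so the limit was passed against 1 control only. Both probes had the treated arrays below the controls: one read 2.55 and 3.29 on the Pre-miR and siRNA negative control arrays and 2.33 and 2.34 with Pre-miR-376c and siGRB2-2, and the other read -0.64, -0.79, -1.14 and -1.15 in that order. The probes put the controls in opposite order. Only the brighter probe was past 1.5-fold from siRNA negative control (-0.97 and -0.96 with Pre-miR-376c and siGRB2-2), while the dimmer was at -0.35 and -0.36. *DIABLO*, whose product displaces XIAP from caspases, varied by 0.16. *APAF1*, the scaffold of the apoptosome, was at -2.44 and -2.47 on the Pre-miR and siRNA control arrays, at -2.51 with Pre-miR-376c and at -2.73 with siGRB2-2. *CASP9*, which the apoptosome activates, had a range of 0.13 over the 4 arrays, and *CASP6*, an executioner caspase, one of 0.25. *CASP2* was low only with siRNA negative control, at -1.52 against -1.05 to -1.12 on the other arrays.

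*CASP10* and *CFLAR* had probes that disagreed. The mean of *CASP10*, another initiator caspase of the death receptors, was 0.10 with Pre-miR negative control, 0.03 with siRNA negative control, 0.08 after Pre-miR-376c and 0.07 after siGRB2-2. Beneath that flat mean, one probe read 3.48, 2.76, 3.57 and 3.65 in the same order and another -0.24, 0.22, -0.33 and -0.31, opposite in direction on the siRNA negative control array. The third was near -3 throughout (-2.89 to -3.12). *CFLAR*, which encodes the caspase 8 inhibitor FLIP, lay at -0.83, -1.43, -0.92 and -1.05 in that order. One of its probes was lowest with siGRB2-2 (0.28, against 0.53 to 0.80) and the other lowest with siRNA negative control (-3.39, against -2.38 to -2.63), so the direction of the siGRB2-2 difference depended on the probe.

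Among the death receptors, their ligand and adaptor, 6 of 7 genes were below both negative controls with Pre-miR-376c, and all 7 were below siRNA negative control with siGRB2-2, by 0.03 to 0.32 (27.2% and 41.4% of all genes were). With quantile normalization or a median shift, 3 of the 7 were below both controls with Pre-miR-376c. Below siRNA negative control with siGRB2-2 were 5 with quantile normalization and 6 with the 75th percentile of detected probes. None was 1.5-fold from both controls. *FAS* was the gene that went the other way with Pre-miR-376c. It lay at -1.10 with Pre-miR negative control, -1.42 with siRNA negative control, -0.96 after Pre-miR-376c and -1.67 after siGRB2-2, so the Pre-miR-376c array was the highest and the siGRB2-2 array the lowest. The treated arrays were 0.71 apart (scanner error 0.0994). With Pre-miR-376c the level was 110% of Pre-miR negative control and 138% of siRNA negative control, and with siGRB2-2 it was 67.3% and 83.9%. All 3 probes kept this order of the 4 arrays: the probe with 10 spots read -0.37, -0.65, -0.22 and -0.92 on the Pre-miR negative control, siRNA negative control, Pre-miR-376c and siGRB2-2 arrays, and another -0.79, -1.11, -0.65 and -1.33. The remaining probe ran from -2.76 with siGRB2-2 over -2.48 and -2.13 on the siRNA and Pre-miR negative control arrays to its highest reading with Pre-miR-376c, 0.76 above siGRB2-2. The treated arrays stayed at least 1.5-fold apart for *FAS* under each of the 8 other processings tried.

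*TNFSF10*, the ligand TRAIL, lay at -0.26 with Pre-miR negative control, -0.44 with siRNA negative control, -0.83 after Pre-miR-376c and -0.55 after siGRB2-2. The Pre-miR-376c array was the lowest, at 67.2% and 76.3% of the controls (log2 differences -0.57 and -0.39, scanner error 0.107), both short of the limit. Its probes read -0.38 and -0.14 with Pre-miR negative control and -0.84 and -0.83 with Pre-miR-376c. With siGRB2-2 they disagreed. The probe with 10 spots read -0.53, above its -0.62 with siRNA negative control, and the other read -0.57, below its -0.27. That *TNFSF10* lay below siRNA negative control with siGRB2-2 thus rested on 1 probe. Of the TRAIL receptors, the death-inducing *TNFRSF10A* and *TNFRSF10B* varied by 0.28 and 0.16 over the 4 arrays. The decoy receptor *TNFRSF10D* lay at 1.53 with Pre-miR negative control, 2.18 with siRNA negative control, 1.39 after Pre-miR-376c and 1.87 after siGRB2-2, with the siRNA negative control highest. *FADD*, the adaptor of these receptors, was the steadiest of the group, between 4.41 and 4.56. The tumour necrosis factor receptor gene *TNFRSF1A* was lower with Pre-miR-376c than with the controls by 0.12 and 0.39.

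**Figure D4:**
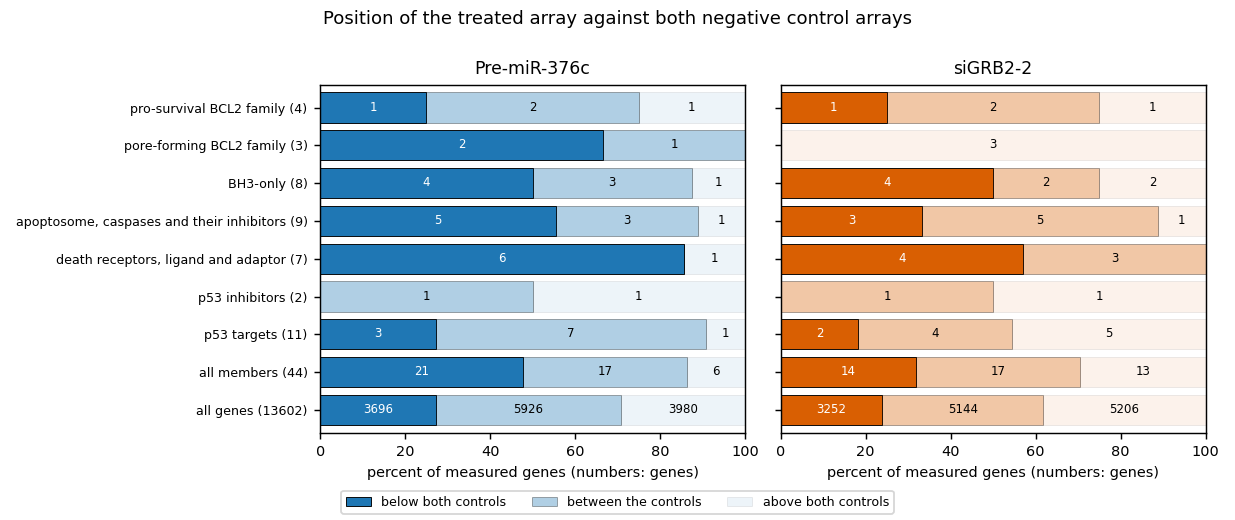
Share of the measured genes of each group (x axis, percent; numbers in the bars are genes) whose treated array lay below both, between or above both negative control arrays by any amount, with Pre-miR-376c on the left and siGRB2-2 on the right. With Pre-miR-376c, 21 of the 44 members and 3696 of the 13602 genes lay below both controls, and 6 of these members were in the group of 7 death receptor genes.

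The inhibitors of p53 did not move together. *MDM2*, the ubiquitin ligase that degrades p53 and is itself induced by it, lay at -3.14 with Pre-miR negative control, -3.08 with siRNA negative control, -2.81 after Pre-miR-376c and -3.02 after siGRB2-2. It was highest with Pre-miR-376c, at 126% and 121% of the controls (scanner error 0.100 and 0.101 on the log2 scale). All 3 probes were highest with Pre-miR-376c. *MDM4*, its partner, was -1.62 with Pre-miR negative control, -2.28 with siRNA negative control, -2.16 after Pre-miR-376c and -1.94 after siGRB2-2, with both treated arrays between the controls.

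Of the 11 p53 targets, *TP53INP1* and *ZMAT3* passed the limit as described. The other 9 were within 1.5-fold of at least one control with each treatment. With Pre-miR-376c, 3 of 11 lay below both controls and 1 above both, where 27.2% and 29.3% of all genes did. With siGRB2-2, 2 lay below both and 5 above both, where 23.9% and 38.3% of all genes did. *SESN1*, a stress-induced gene, was the one above both controls with Pre-miR-376c, at -4.51 and -4.38 on the Pre-miR and siRNA control arrays, -4.33 after Pre-miR-376c and -4.61 after siGRB2-2. *FDXR*, a mitochondrial reductase, was 2.89 with Pre-miR-376c, under 3.04 and 3.33 with the Pre-miR and siRNA controls, and 3.14 with siGRB2-2. The half-site windows of these 2 genes are those printed above, and their largest difference from a control was 0.44. *GADD45B*, a relative of *GADD45A*, was 3.06 with Pre-miR negative control, 3.16 with siRNA negative control, 2.81 after Pre-miR-376c and 3.32 after siGRB2-2, so that the treatments lay on opposite sides of the controls. *TP53I3*, an oxidoreductase gene, was 0.56 below Pre-miR negative control and 0.01 above siRNA negative control with Pre-miR-376c. *RRM2B*, which encodes a ribonucleotide reductase subunit, was lowest with siGRB2-2, 0.12 below Pre-miR negative control and 0.50 below siRNA negative control. The antiproliferative gene *BTG2*, the AKT inhibitor gene *PHLDA3* and the DNA repair gene *XPC* differed from Pre-miR negative control by at most 0.17 with either treatment, and from siRNA negative control by 0.16 to 0.47.

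The wider pathway was read from 41 further genes of the same routes, of which 38 were measured (all but *BCL2L14*, *BNIP3* and *FASLG*). Past 1.5-fold, none was higher than both controls with either treatment (0.809% of all genes were with Pre-miR-376c and 1.26% with siGRB2-2). Lower than both was 1 of the 38 with Pre-miR-376c (1.59% of all genes) and none with siGRB2-2 (0.934%). Nothing is read from these counts. The lower gene was *TNFRSF25*, a death receptor of the tumour necrosis factor receptor family, with 1 of its 2 probes used. It lay at 0.84 with Pre-miR negative control, 1.12 with siRNA negative control, 0.16 after Pre-miR-376c and 0.72 after siGRB2-2. Just short of the limit with Pre-miR-376c were *PERP*, a p53 target of cell junctions, which was 0.52 and 0.72 below the Pre-miR and siRNA controls, and *STEAP3*, a p53 target and metalloreductase, 0.70 and 0.55 above them. The median log2 difference of the 38 genes was 0.01 with Pre-miR-376c from Pre-miR negative control and 0.01 with siGRB2-2 from siRNA negative control, beside -0.02 and 0.11 for all genes.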

How the data were processed

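RNA of 4 transfections of HuCCT1 cells was labelled with 1 dye and hybridized to 1 Agilent array each. The authors deposited spot intensity values of the Feature Extraction software (version 10.7.3.1 in the file headers), background-subtracted by that software, and a table of log2 values shifted to the 75th percentile. That table equals the scanner values plus a constant per array (within 0.01 for 100% of the probes compared). Its column medians were -3.39, -3.59, -3.44 and -3.36 for Pre-miR negative control, siRNA negative control, Pre-miR-376c and siGRB2-2, and its centring is otherwise unknown. Members and gene lists were chosen with earlier results of these data known.

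Processed intensities were log2-transformed, and the 75th percentile of an array's 43118 non-control spots (a signal of 1719 to 2689) was subtracted. Spots with an outlier flag (289 to 329 per array) were left out and none was saturated. Spots of a probe were averaged. A probe counted as detected when over 0.5 of its spots were well above background, and genes are the mean over probes detected on all 4 arrays (21239 of 34127 probes, 62 of the 67 member probes; 14 members had several). Accessions were named through a RefSeq table of GRCh38.p14 (25422 probes), used for names and printed sequences only. For a probe not well above background on an array, the bound is the brighter signal over the higher of that array's lowest signal well above background and the probe's own. No test was made, since there was 1 array per condition, and precision is limited by this number of arrays. All arrays lay on 1 slide and 1 scan. Values on all 4 arrays are given for *GRB2*, members past the limit, members 2-fold apart between controls and the member of each group farthest from the mean of the controls. They are also given for members whose probes differ by at least 1 in their log2 difference from the treatment's own control. Others were chosen after their values were seen. The values were also computed with a median shift, quantile normalization, the 75th percentile of detected probes, normexp (offset 50), the deposited log2 values, no filter on dim probes, the brightest probe, flagged spots kept, a 2-fold limit and other controls. Python 3.11.15, numpy 2.4.6, pandas 2.3.3, R 4.3.3 and limma 3.58.1 were used.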

Additional observations from a re-analysis of the deposited data

Results flagged for a closer look

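A second probe of *BCL2A1*, a pro-survival member of the BCL2 family, was left out of the gene's value because it was well above background on 2 arrays only. Probe A_23_P152002 read -2.44 (log2, relative to the array's 75th percentile) with siGRB2-2 and -6.07 with Pre-miR negative control, 1 spot each, and was not well above background with siRNA negative control or Pre-miR-376c. The siGRB2-2 array was at least 14.7-fold brighter than siRNA negative control and at least 15.6-fold brighter than Pre-miR-376c, and 3.63 higher on the log2 scale than Pre-miR negative control. The gene's other probe, A_23_P321703, read 1.19 with Pre-miR negative control, 1.37 with siRNA negative control, 0.98 after Pre-miR-376c and 0.96 after siGRB2-2, lowest on the array where the first was brightest. Why they differ was not tested.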

How the results depend on the processing

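No paired analysis was possible because there was only 1 array for each transfection. *TP53INP1* passed the limit with Pre-miR-376c under all 8 other processings of the values, *BMF* under all but normexp, and *ZMAT3* with siGRB2-2 under all but quantile normalization, the median shift and normexp. So the count of members higher with siGRB2-2 was 0 under quantile normalization and the median shift (132 and 111 of 13602 genes) and 0 under normexp (78 of 13003). It was 2 with no filter on dim probes, where *BCL2A1* was added (740 of 19459 genes). The count lower with Pre-miR-376c was 1 under normexp (115 of 13003 genes). At a limit of 2-fold, 0 members were lower with Pre-miR-376c and 0 higher with siGRB2-2 (20 and 34 of 13602 genes). Against the own control only, 1 of 44 members was higher with Pre-miR-376c and 2 were lower (364 and 697 of 13602 genes). With siGRB2-2, 4 were higher and 2 lower than the own control (2399 and 1484 genes). Against the Pre-miR control only, 3 were higher with siGRB2-2 and 0 lower (368 and 326 genes). For Pre-miR-376c that control is its own. Of 44 recomputed medians 42 moved by less than 0.204, the median scanner error of a member's difference. That allowance is wider than the main medians themselves (-0.09 to 0.05), and those with flagged spots kept repeat the main values. The count therefore does not show that the medians or their signs held. The median shift took the siGRB2-2 minus siRNA control median to -0.27 (all genes -0.17) and that between the controls to 0.32 (all genes 0.19). Over all genes the split of higher and lower calls with siGRB2-2 went from 171 and 127 to 132 and 186 under quantile normalization, and to 111 and 191 under the median shift. Members below their own control with Pre-miR-376c numbered 20 under the median shift (37.2% of all genes) and 29 to 36 otherwise (46.7% to 54.8% of all genes). Death receptor genes below both controls with Pre-miR-376c numbered 3 under quantile normalization and 3 under the median shift (27.0% and 24.6% of all genes). Pore-forming genes above both with siGRB2-2 numbered 1 under the median shift (25.4% of all genes). Members below both controls numbered 16 to 21 with Pre-miR-376c (24.2% to 29.2% of all genes) and 13 to 18 with siGRB2-2 (20.4% to 34.2% of all genes). The treated arrays were 1.5-fold apart for 2 members under normexp (444 of 13003 genes). They were so for 4 with no filter on dim probes (2134 of 19459 genes) and for 3 otherwise (764 to 850 genes). Each *BMF* probe alone also passed the limit (-0.73 and -1.15, and -0.83 and -0.66, from the Pre-miR and siRNA controls), which, like the counts of genes below or above controls by any amount or apart between the treated arrays, was added after seeing the data. No called difference changed sign, and the causes were not tested.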
